A study of Mus musculus with 8 samples.

Results

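The genes described here are 35 genes of the NRF2, glutathione and peroxide defence system, taken by symbol from the 24421 gene rows of the count table. All 35 were in the table, and 34 of them were among the 11797 genes that passed the filter on low counts. Nqo1 did not pass it. RNA was sequenced from 8 libraries of KPCY cells, a mouse pancreatic cancer line that the labels give as male and whose alleles they do not spell out. In the knockdown group, 4 libraries came from cells stably carrying a lentiviral inhibitor of the microRNA miR-27a-3p. In the control group, 4 libraries came from cells carrying a scrambled sequence. Both lines went through 7 days of puromycin at 2 µg/mL, grew in medium with 4.5 g/L glucose, 10% serum and no pyruvate, and gave RNA 24 hours after seeding. The labels call the libraries biological replicates and describe 1 stable line per construct, so a p-value here reflects how much libraries of these lines vary and not how lines made independently would.

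NRF2, the protein of Nfe2l2, is a transcription factor that KEAP1 holds at a low level by handing it to the proteasome. When oxidants or electrophiles modify KEAP1, NRF2 accumulates, pairs with a small MAF protein and activates genes that carry an antioxidant response element. Its targets import cystine, make glutathione, join glutathione to electrophiles, and keep the thioredoxin and peroxiredoxin cycle running. In pancreatic cancer cells this system is known for buffering the oxidants that accompany oncogene activity, and loss of cystine import can end in ferroptosis, a death by lipid peroxidation.

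The inhibited microRNA is shown because it defines the groups. Its sequence is from RefSeq (GRCm38.p6, chr8:84208727-84208747, plus strand), with the seed (bases 2 to 8) in capitals. Mature microRNAs are not captured by the poly(A)-selected libraries, so the level of the inhibited molecule was not measured here.
mmu-miR-27a-3p: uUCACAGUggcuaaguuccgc
A transcript that pairs with this seed carries ACTGTGA, and the longest of the site types searched is ACTGTGAA. Of the 35 members, each searched over 1 annotated 3′ UTR, 4 carried ACTGTGA, namely Slc7a11, Nfe2l2, Gsto1 and Ggct. Slc7a11 alone carried ACTGTGAA, and 16 members held at least the 6-base core of the seed match. The 2 matches shown belong to the cystine transporter and to NRF2 itself, with the seed match in capitals. The first starts at base 398 of a 3′ UTR of 7364 bases, and the second at base 60 of 448.
Slc7a11: gggacatctatACTGTGAAagtattttgtt
Nfe2l2: taaaacttcctACTGTGAtgtgaaatgcag
A match is a stretch of letters and not a measured site. The share of all genes that carry such matches was not counted. The 3′ UTRs searched ran from 60 bases in Prdx4 to 7364 in Slc7a11, and the only ACTGTGAA lies in the longest. The 4 genes with ACTGTGA did not move alike in the knockdown: Slc7a11 and Nfe2l2 were lower, Gsto1 was higher, and Ggct was not called.

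Levels are given as CPM, counts brought to a common library total, scaled by TMM, a trimmed mean that adjusts for differences in library composition. In the knockdown, 16 of the 34 tested members were lower (47.1%) and 5 were higher (14.7%) than in the scrambled cells at an adjusted p under 0.05 (quasi-likelihood test of edgeR, adjusted over all genes by Benjamini-Hochberg). The knockdown differed from the scrambled line across the whole transcriptome: 24.1% of all tested genes were called lower and 23.8% higher. The members' share of lower calls was thus above that background and their share of higher calls below it. The members were chosen with earlier results of these data known. These shares, and those by fold size below, therefore describe the list and are no test of the system. The median log2 fold change was -0.070 over the members and 0.0017 over all genes. With library totals alone as the scaling, 15 members were lower and 8 higher. Without scrambled replicate 2, which stood apart from the other scrambled libraries, 17 were lower and 7 higher. Because these are bulk samples, fewer cells of a type and less RNA per cell cannot be told apart.

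Most calls were small, among the members as over all genes. Of the 21 members called either way, beside 47.9% of all genes, 12 changed by less than 0.26 on the log2 scale, which is 1.2-fold. Of the 5645 genes called over the whole transcriptome, 1073 were lower and 1276 higher by at least 1.2-fold. Called and lower by at least 1.2-fold were 8 members (23.5%), against 9.1% of all tested genes. Called and higher by at least that fold was 1 member (2.94%), Prdx2, against 10.8% of all genes. A test against a fold of 1.2 itself (edgeR's glmTreat) called 5 members lower and 1 higher, beside 4.43% and 4.95% of all genes. The 4 knockdown libraries lay wholly below the 4 scrambled ones for 15 members, against 21.1% of all genes, and wholly above for 5, against 21% of all genes. Among genes of at least 10 CPM on average, 14 of 30 members were lower and 5 higher, against 27.1% and 24.9% of such genes.

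**Figure D1:**
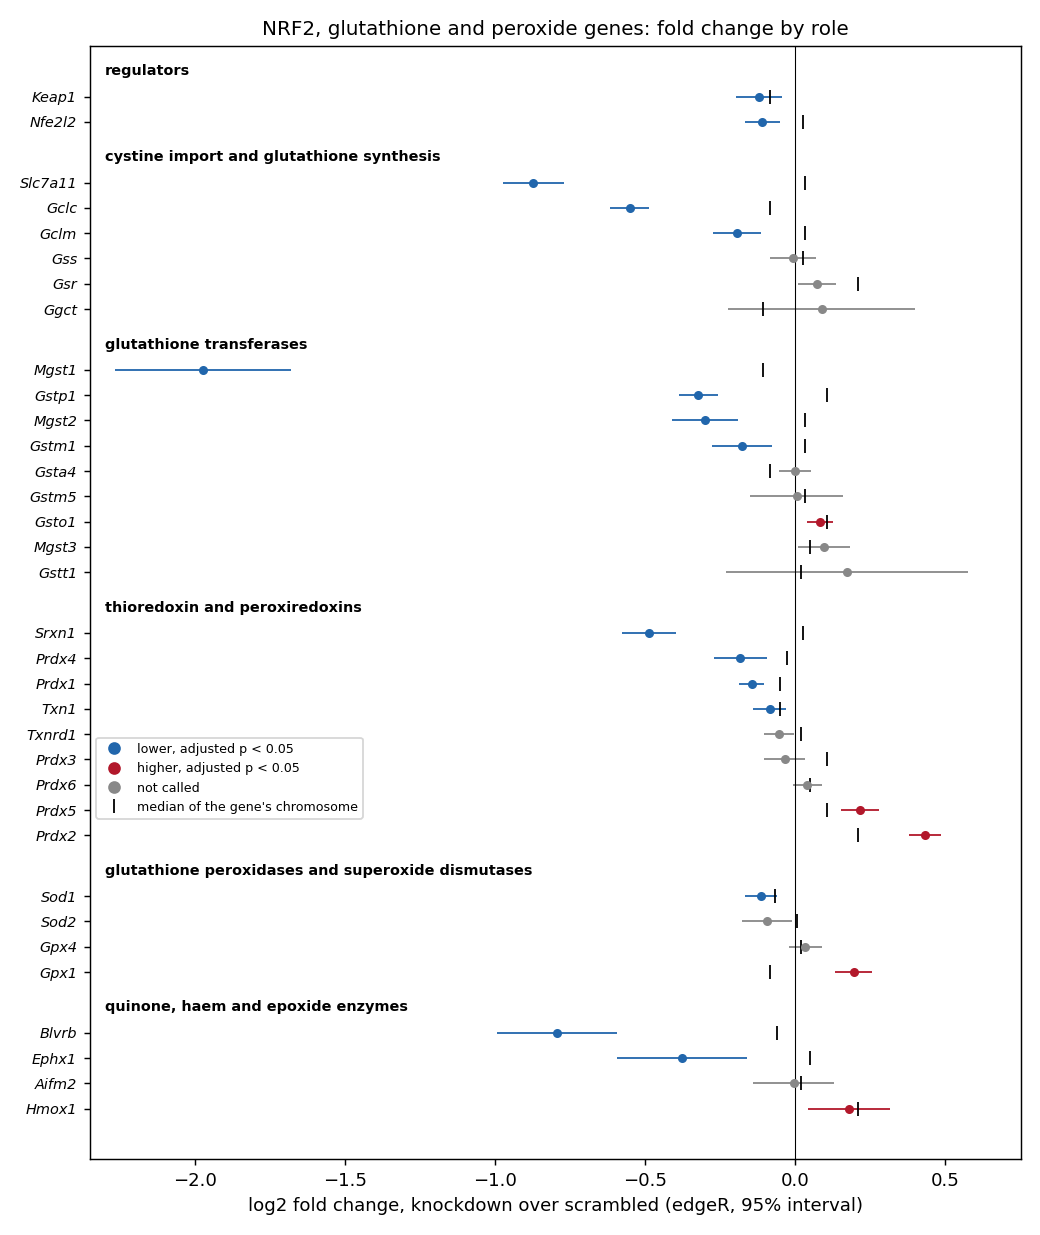
Log2 fold change of each of the 34 tested members, knockdown minus scrambled, by role. Points are edgeR estimates, bars are 95% confidence intervals, and colour marks the call; Mgst1 lies farthest below 0 at -1.97 and Prdx2 farthest above it among called members at 0.43.

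The libraries held 19165513 to 23542275 counts each, so that 3 counts, the most that a count of 0 allows, stood for 0.129 to 0.155 CPM. Scrambled replicate 2 differed from the other 3 scrambled libraries by a chi-square of 5.18 to 5.36 per gene, while the other scrambled pairs gave 1.80 to 2.35 and the knockdown pairs 1.73 to 1.95. It was the highest scrambled library for 15 of the 34 members, among them Slc7a11, Gclc, Gclm, Srxn1 and Blvrb, and the lowest for 7. The labelled cell type was checked on 6 epithelial markers, whose summed level was 11298 to 11627 CPM in the knockdown and 10631 to 11598 CPM in the scrambled libraries. Krt7, Krt8, Krt18, Krt19 and Cdh1 carried nearly all of it, and Epcam was low at 5.62 and 7.15 CPM. Of these 6, 1 was called lower and 3 higher in the knockdown, beside 24.1% and 23.8% of all genes. The similar sums therefore do not show that the lines were alike in each marker. The fibroblast markers summed to 0.725 to 1.38 CPM in the knockdown and 0.943 to 1.41 CPM in the scrambled libraries, with Col1a2, Dcn and Lum at 0. The leukocyte markers summed to 2.71 to 4.40 and 3.69 to 4.08 CPM, with Adgre1 at 0. Endothelial markers reached at most 1.03 CPM and muscle markers at most 0.358 CPM.

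Promoters are shown for 3 members that were lower in the knockdown and carry the motif TGANTCAGC. With C or G at N it holds an AP-1 site, and only with C at N does it also match the core antioxidant response element, TGACNNNGC. The windows run from 250 bases before to 50 bases after the start (RefSeq, GRCm38.p6), and capitals mark the matches to TGANTCAGC or to the core element TGACNNNGC on either strand. They belong to Gstp1 (chr19:4037863-4038162, minus strand), Prdx1 (chr4:116685349-116685648, plus strand) and Srxn1 (chr2:152105274-152105573, plus strand).
Gstp1: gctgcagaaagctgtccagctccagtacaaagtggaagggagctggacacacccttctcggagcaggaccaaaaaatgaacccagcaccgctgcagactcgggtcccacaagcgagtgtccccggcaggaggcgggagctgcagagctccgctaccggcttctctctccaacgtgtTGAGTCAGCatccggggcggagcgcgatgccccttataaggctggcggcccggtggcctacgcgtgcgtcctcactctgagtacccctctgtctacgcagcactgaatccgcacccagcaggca
Prdx1: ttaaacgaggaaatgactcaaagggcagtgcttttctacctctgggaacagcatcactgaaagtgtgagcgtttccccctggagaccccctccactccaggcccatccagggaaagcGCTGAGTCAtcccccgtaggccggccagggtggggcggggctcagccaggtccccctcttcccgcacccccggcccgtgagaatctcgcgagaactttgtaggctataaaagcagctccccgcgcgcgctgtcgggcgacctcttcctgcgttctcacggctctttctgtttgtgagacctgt
Srxn1: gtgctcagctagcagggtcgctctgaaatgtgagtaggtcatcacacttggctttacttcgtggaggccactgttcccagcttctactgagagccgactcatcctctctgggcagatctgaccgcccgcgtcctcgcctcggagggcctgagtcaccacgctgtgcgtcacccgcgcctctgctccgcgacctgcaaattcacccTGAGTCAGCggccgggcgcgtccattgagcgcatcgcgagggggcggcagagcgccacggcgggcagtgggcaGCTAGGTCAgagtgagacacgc
The motif TGANTCAGC starts at -74 in Gstp1, at -133 in Prdx1 and at -45 in Srxn1, relative to the start site. In Prdx1 the same letters match both motifs, and Srxn1 has a separate TGACNNNGC match at 29. A promoter window was found for 30 of the 35 members; Gclc, Gsr, Gsta4, Hmox1 and Prdx6 had none in the table. Of these 30, 3 carried TGANTCAGC, as did 1.26% of 17491 protein-coding genes, with a gene counted if any of its windows held it. The shorter and more permissive TGACNNNGC was in 9 of the 30 (30%) and in 14.8% of all genes. By call, TGACNNNGC was in 6 of 15 members that were lower (Nfe2l2, Gclm, Mgst1, Srxn1, Prdx1 and Sod1), in 0 of 4 that were higher and in 3 of 10 that were not called. These shares describe letters in a 300-base window, and binding by NRF2 was not measured.

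The regulators themselves moved little. Nfe2l2 (chromosome 2, 75675513 to 75704641 in GRCm38), which encodes NRF2, read 285, 267, 281 and 293 CPM in scrambled replicates 1 to 4. In knockdown replicates 1 to 4 it read 262, 266, 257 and 258 CPM. The groups did not overlap, but the lowest scrambled and the highest knockdown library nearly met. The change was -0.11 on the log2 scale (SE 0.0275, 1.08-fold lower, edgeR adjusted p = 0.00222). Keap1 (chromosome 9, 21229730 to 21239361), which encodes the adaptor that marks NRF2 for degradation, read 71.1, 72.9, 76.6 and 74.4 CPM in the scrambled libraries and 70.5, 66.3, 68.4 and 66.4 CPM in the knockdown. It was lower by a like amount, with a log2 change of -0.12 (SE 0.0367, 1.09-fold lower, edgeR adjusted p = 0.00982). The Keap1 call was lost without scrambled replicate 3, at an adjusted p of 0.05005 in edgeR. Keap1 shares 510 exon bases with the antisense gene Gm16754, and whether the counting used strand is not given in the sources used here. In all, 8 members share exon bases with another annotated gene (Gclm, Gss, Gstm5, Prdx2, Prdx5, Ephx1 and Aifm2 are the others), so that some of their reads may be uncertain. The log2 ratio of Keap1 to Nfe2l2 within a library was -1.94 ± 0.0517 (SD, n = 4) in the knockdown and -1.93 ± 0.0671 (SD, n = 4) in the scrambled cells, a difference of -0.010 (exact permutation test, two-sided p = 0.743).

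Cystine import and glutathione synthesis held some of the largest falls, and these were at the entry of the pathway. Of its 6 genes, 3 were lower, none was higher and 3 were not called, beside 24.1% lower and 23.8% higher of all genes. The summed level of the 6 was 912 ± 6.94 CPM (SD, n = 4) in the knockdown and 1023 ± 56.2 CPM (SD, n = 4) in the scrambled cells. Slc7a11 (chromosome 3, 49892526 to 50443614), the light chain of the cystine/glutamate exchanger xCT, read 70.9, 83.8, 72.8 and 74.9 CPM in the scrambled libraries. It read 42.1, 42.2, 39.0 and 41.8 CPM in the knockdown libraries. All knockdown values lay far below all scrambled ones, with scrambled replicate 2 the highest of the 8. The log2 change was -0.87 (SE 0.0486, 1.83-fold lower, edgeR adjusted p = 1.5e-12), and -0.82 (1.77-fold) without scrambled replicate 2. Slc3a2, the heavy chain that carries xCT to the cell surface and also serves other amino acid transporters, was higher instead, at 178 ± 0.978 CPM (SD, n = 4) against 158 ± 3.28 CPM (SD, n = 4), 1.12-fold (edgeR adjusted p = 1.47e-05). The log2 ratio of Slc7a11 to Slc3a2 was -2.11 ± 0.0561 (SD, n = 4) in the knockdown and -1.07 ± 0.116 (SD, n = 4) in the scrambled cells. That 2.05-fold difference in ratio had an exact permutation p of 0.0286 (two-sided), the smallest that 4 against 4 libraries can give, and 0.0476 after adjustment over the 5 ratios tested. Slc7a11 was lower and Slc3a2 higher in every knockdown library than in any scrambled one. The ratio therefore had to separate the groups, and this p adds no evidence beyond the 2 genes' own results.

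Glutamate-cysteine ligase, the rate-limiting enzyme of glutathione synthesis, has a catalytic and a modifier subunit, and the transcript of the catalytic subunit fell further. Gclc, the catalytic subunit (chromosome 9, 77754535 to 77794485), read 269, 298, 272 and 264 CPM in the scrambled libraries and 188, 186, 189 and 189 CPM in the knockdown. The knockdown libraries were within a few CPM of each other, and the lowest scrambled library was well above them. The change was -0.55 on the log2 scale (SE 0.0313, 1.47-fold lower, edgeR adjusted p = 2.02e-12). Gclm, the modifier subunit, read 105, 117, 104 and 102 CPM in the scrambled libraries and 89.6, 94.5, 93.4 and 96.5 CPM in the knockdown. The groups did not overlap, and the change was -0.19 (SE 0.0390, 1.14-fold lower, edgeR adjusted p = 0.000271). Within libraries, the log2 ratio of Gclc to Gclm was 1.01 ± 0.0466 (SD, n = 4) in the knockdown and 1.37 ± 0.0153 (SD, n = 4) in the scrambled cells, a 1.28-fold difference (exact permutation test, two-sided p = 0.0286, adjusted p = 0.0476 over 5 ratios).

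The later steps of glutathione handling were not called in the main test. Gss, which adds glycine to complete glutathione, gave a log2 change of -0.0067 with a 95% confidence interval of -0.083 to 0.070. Gsr, the reductase that returns oxidised glutathione to its reduced form, was at 513 ± 3.80 CPM in the knockdown and 488 ± 28.8 CPM in the scrambled cells (SD, n = 4 each). It lay at the threshold, with an edgeR adjusted p of 0.0521. It was called higher with upper-quartile factors (0.0160), library totals (0.0102), no filter on low counts (0.0167), a filter of 1 CPM (0.0469) and limma-voom (0.0390). Without scrambled replicate 2 its log2 change was 0.11 (edgeR adjusted p = 3.22e-06). Ggct, which acts in glutathione breakdown, was low at 4.67 and 4.38 CPM, and its interval of -0.22 to 0.40 was wide.

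**Figure D2:**
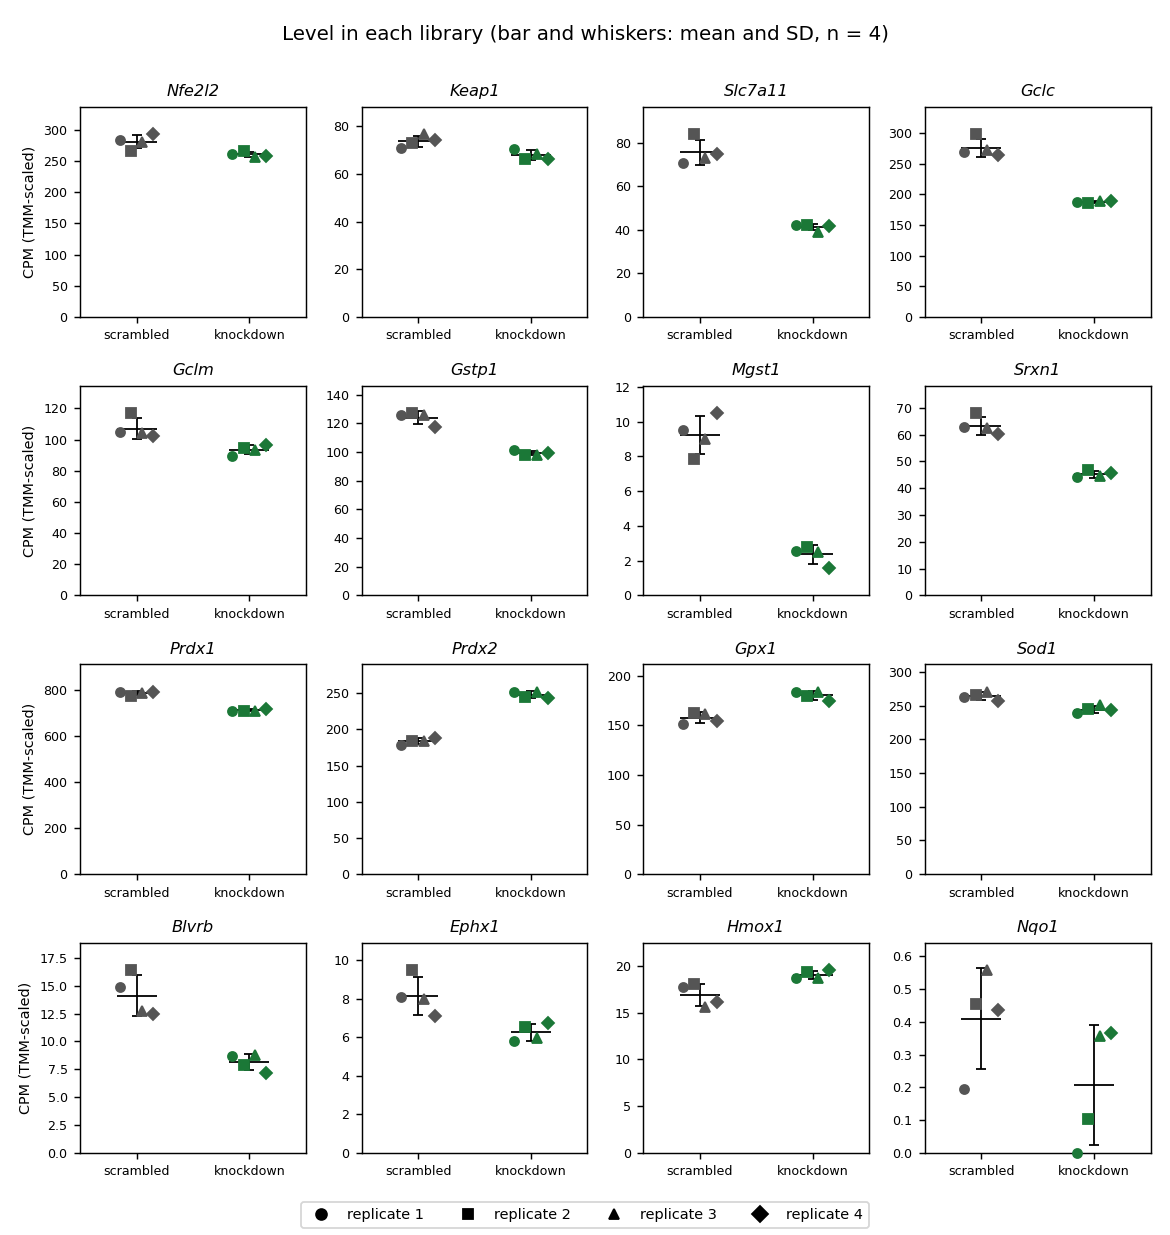
TMM-scaled CPM of 16 members in each of the 8 libraries, each panel with its own axis from 0. Symbols mark the replicate number, which does not pair libraries, and bars with whiskers give the mean and SD of 4; the groups stand clear of each other for Slc7a11, Gclc, Mgst1, Srxn1, Prdx2 and Blvrb and overlap for Nqo1.

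The glutathione transferases, which join glutathione to electrophiles, were lower for 4 of 9 members, higher for 1 and not called for 4. Over all genes, 24.1% were lower and 23.8% higher. The largest change of all members was in Mgst1, a membrane-bound transferase with peroxidase activity (chromosome 6, 138140316 to 138156755). It read 9.52, 7.86, 9.003 and 10.5 CPM in the scrambled libraries and 2.56, 2.80, 2.50 and 1.60 CPM in the knockdown. These levels rest on 156 to 216 counts per scrambled library and 35 to 54 counts per knockdown library, and no knockdown library came near the scrambled range. The log2 change was -1.97 (SE 0.142, 95% confidence interval -2.27 to -1.68, 3.93-fold lower, edgeR adjusted p = 1.18e-10). Gstp1, the pi-class enzyme (chromosome 19), read 126, 127, 126 and 118 CPM in the scrambled libraries and 101, 98.2, 97.8 and 99.7 CPM in the knockdown. It was lower in every knockdown library, by 0.32 on the log2 scale (SE 0.0316, 1.25-fold, edgeR adjusted p = 1.97e-08). Because 86.1% of its transcript is at least 95% identical to Gstp2, the split of reads between them is uncertain; Gstp2 itself was below the filter on low counts.

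The other transferases showed smaller or no changes. Mgst2, a relative of Mgst1, was at 26.1 ± 0.983 CPM in the knockdown and 32.2 ± 1.59 CPM in the scrambled cells (SD, n = 4 each), 1.23-fold lower (edgeR adjusted p = 6.53e-05). Gstm1, a mu-class enzyme that shares sequence with the pseudogene Gstm2-ps1 and is uncertain for that reason, was at 35.3 ± 1.98 and 39.9 ± 0.963 CPM (SD, n = 4 each; edgeR adjusted p = 0.00407). Gsto1, the omega-class enzyme that also reduces dehydroascorbate, went the other way, at 610 ± 4.61 CPM in the knockdown against 576 ± 10.1 CPM (SD, n = 4 each), 1.06-fold higher (edgeR adjusted p = 0.0026). Gsta4, which removes the lipid peroxidation product hydroxynonenal, was level at 537 and 538 CPM, with an interval of the log2 change from -0.053 to 0.053. Gstm5 gave 0.0041 with an interval of -0.15 to 0.16, with an edgeR adjusted p of 0.97. Mgst3 was near the threshold: its log2 change of 0.095 had an edgeR adjusted p of 0.0652, and it was called higher with upper-quartile factors (0.0256), library totals (0.0203), no filter on low counts (0.0255), and without scrambled replicate 1 (0.00899) or 2 (0.00637). Gstt1, at 2.36 and 2.11 CPM, had the widest interval of the transferases, -0.23 to 0.57. As Gsta4 and Gsto1 supply most of the reads of this class, its summed level was 1428 ± 21.99 CPM in the knockdown and 1429.8 ± 32.3 CPM in the scrambled cells (SD, n = 4 each), a difference within the spread between libraries.

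Thioredoxin and the peroxiredoxins remove peroxides with electrons from NADPH. In this class 4 of 9 members were lower (44.4%), 2 were higher (22.2%) and 3 were not called. The shares over all genes were 24.1% lower and 23.8% higher. Prdx2, an abundant cytosolic peroxiredoxin (chromosome 8, 84969587 to 84974834), read 179, 185, 184 and 189 CPM in the scrambled libraries and 252, 244, 252 and 244 CPM in the knockdown. The groups were far apart, and Prdx2 had the largest rise of any called member, 0.43 on the log2 scale (SE 0.0259, 1.35-fold higher, edgeR adjusted p = 5.76e-12). It shares 177 exon bases with Rnaseh2a on the opposite strand. Srxn1, sulfiredoxin, which restores peroxiredoxins that have been over-oxidised, read 63.0, 68.0, 62.4 and 60.1 CPM in the scrambled libraries and 44.0, 46.7, 44.4 and 45.6 CPM in the knockdown. All knockdown libraries lay below all scrambled ones, with a log2 change of -0.49 (SE 0.0431, 1.402-fold lower, edgeR adjusted p = 4.04e-09). This gene carries the promoter motif TGANTCAGC printed above.

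Prdx1, the most abundant member of its family here on the per-length scale and a substrate of sulfiredoxin, also carries that motif. It was at 713 ± 4.24 CPM in the knockdown and 789 ± 8.09 CPM in the scrambled cells (SD, n = 4 each), 1.11-fold lower (edgeR adjusted p = 2.53e-06). Srxn1 fell further than Prdx1: the log2 ratio of Srxn1 to Prdx1 was -3.98 ± 0.0355 (SD, n = 4) in the knockdown and -3.64 ± 0.0893 (SD, n = 4) in the scrambled cells, a 1.27-fold difference (exact permutation test, two-sided p = 0.0286, adjusted p = 0.0476 over 5 ratios). Prdx4, the peroxiredoxin of the endoplasmic reticulum, was 1.14-fold lower (edgeR adjusted p = 0.00103). Prdx5, found in mitochondria, peroxisomes and cytosol, was 1.16-fold higher at 147 ± 4.85 against 126 ± 3.15 CPM (SD, n = 4 each; edgeR adjusted p = 4.17e-06), and shares 409 exon bases with Trmt112 on the opposite strand. Mitochondrial Prdx3 gave a log2 change of -0.036 with an interval of -0.11 to 0.034, and Prdx6 gave 0.040 with an interval of -0.0094 to 0.090. Prdx6 was called higher in edgeR with upper-quartile factors (0.0456) and library totals (0.0264).

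Thioredoxin itself changed little. Txn1 was 1.06-fold lower (346 ± 8.69 against 367 ± 11.4 CPM, SD, n = 4 each, edgeR adjusted p = 0.00952). It was the only called member whose groups overlapped, and the call was lost with library totals alone (adjusted p = 0.0632). Txnrd1, the selenoenzyme that reduces thioredoxin and a textbook NRF2 target, was not called, with a log2 change of -0.055 and an interval of -0.11 to -0.0042 (edgeR adjusted p = 0.0692). It was called lower without knockdown replicate 4 (0.0434). The log2 ratio of Txnrd1 to Txn1 differed by 0.030 between the groups (exact permutation test, two-sided p = 0.314). Across the 9 genes the summed level was 2179 ± 14.8 CPM in the knockdown and 2222 ± 10.6 CPM in the scrambled cells (SD, n = 4 each).

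**Figure D3:**
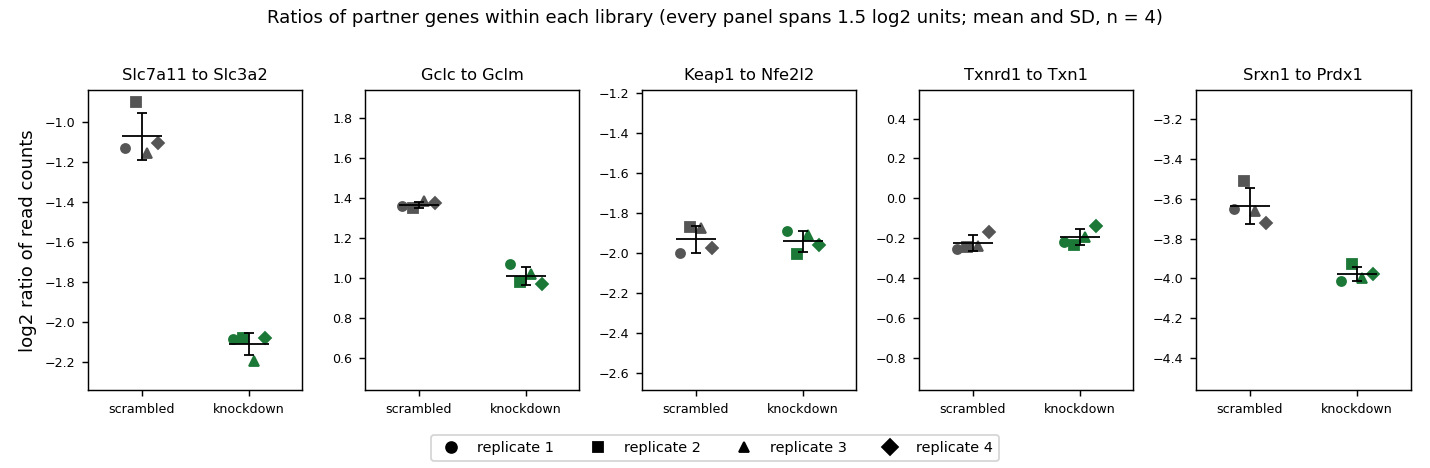
Log2 ratio of the counts of partner genes within each library, 1 panel per pair, with the mean and SD of 4 libraries per group. The knockdown lies wholly below the scrambled group for Slc7a11 to Slc3a2, Gclc to Gclm and Srxn1 to Prdx1, and the groups overlap for Keap1 to Nfe2l2 and Txnrd1 to Txn1.

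Of the 4 glutathione peroxidases and superoxide dismutases, 1 was lower, 1 was higher and 2 were not called. That is 25% each way, near the 24.1% lower and 23.8% higher of all genes. Gpx1, the cytosolic enzyme that uses glutathione to reduce hydrogen peroxide (chromosome 9), read 152, 163, 161 and 154 CPM in the scrambled libraries and 184, 179, 184 and 174 CPM in the knockdown. Every knockdown library was above every scrambled one, with a log2 change of 0.19 (SE 0.0295, 1.14-fold higher, edgeR adjusted p = 1.04e-05). Sod1, which turns superoxide into hydrogen peroxide in the cytosol (chromosome 16), read 264, 266, 271 and 258 CPM in the scrambled libraries and 239, 245, 251 and 243 CPM in the knockdown. It was lower without overlap, by 0.11 on the log2 scale (SE 0.0251, 1.08-fold, edgeR adjusted p = 0.000653), and is uncertain because 72.5% of its transcript is at least 95% identical to Gm8566. Gpx4, which reduces lipid hydroperoxides and restrains ferroptosis, was not called, with a log2 change of 0.034 and an interval of -0.021 to 0.089. It is uncertain because 73.7% of its transcript is at least 95% identical to the pseudogene Gpx4-ps2. Mitochondrial Sod2 missed the threshold (log2 change -0.095, edgeR adjusted p = 0.0543), which it passed without scrambled replicate 2 (0.0162) or without knockdown replicate 1 (0.0336).

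The last class handles quinones, haem and epoxides. Nqo1, a quinone reductase often used as a readout of NRF2 activity, was close to the floor of detection, with 4, 9, 13 and 9 counts in the scrambled libraries and 0, 2, 7 and 8 in the knockdown. The groups overlapped, and Nqo1 did not enter the main test. With no filter on low counts its log2 change was -0.95 (SE 0.533, edgeR adjusted p = 0.162), so a difference was not detectable at this depth. Blvrb, which reduces biliverdin and flavins (chromosome 7), read 14.9, 16.4, 12.7 and 12.5 CPM in the scrambled libraries and 8.65, 7.92, 8.78 and 7.20 CPM in the knockdown. All knockdown libraries were lower, with a log2 change of -0.79 (SE 0.0966, 1.73-fold lower, edgeR adjusted p = 5.2e-07). Ephx1, microsomal epoxide hydrolase (chromosome 1), read 8.11, 9.47, 7.97 and 7.09 CPM in the scrambled libraries and 5.78, 6.53, 5.97 and 6.75 CPM in the knockdown. The groups stood apart by a small margin, with a log2 change of -0.38 (SE 0.104, 1.30-fold lower, edgeR adjusted p = 0.00469).

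Hmox1, the haem oxygenase, which makes biliverdin, was higher where Blvrb and Ephx1 were lower. It read 17.8, 18.1, 15.6 and 16.1 CPM in the scrambled libraries and 18.7, 19.4, 18.7 and 19.5 CPM in the knockdown. The groups were close but did not overlap, and the log2 change was 0.18 (SE 0.0654, 1.13-fold higher, edgeR adjusted p = 0.0284). The call was lost in DESeq2 (adjusted p = 0.0529) and in edgeR without scrambled replicate 3 (0.106), scrambled replicate 4 (0.0768), knockdown replicate 2 (0.0627) or knockdown replicate 4 (0.0706). Blvra, biliverdin reductase A, is among the further genes below and was not called. It was at 24.0 ± 0.703 CPM in the knockdown and 24.2 ± 0.638 CPM in the scrambled cells (SD, n = 4 each; edgeR adjusted p = 0.889). A change in haem breakdown was not tested. Aifm2, also called FSP1, which keeps ubiquinone reduced and restrains ferroptosis beside Gpx4, gave a log2 change of -0.0061 with an interval of -0.14 to 0.13.

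Compared per kilobase of annotated exon, the members spanned a wide range in the scrambled cells. Gsta4 stood highest at 425 ± 11.5 CPM per kilobase, followed by Txn1 at 349.6 ± 10.8, Gsto1 at 285 ± 4.98 and Prdx1 at 259 ± 2.66 (SD, n = 4 each). At the bottom were Ephx1 at 4.18 ± 0.504, Gstt1 at 1.38 ± 0.357, Ggct at 0.566 ± 0.0980 and Nqo1 at 0.264 ± 0.0990 CPM per kilobase (SD, n = 4 each). The top 8 kept their order in the knockdown. In the middle, Nfe2l2 (74.1 ± 2.88) and Gclc (73.2 ± 4.03) did not differ beyond their spread in the scrambled cells, whereas in the knockdown they were at 68.7 ± 1.12 and 49.9 ± 0.417 CPM per kilobase (SD, n = 4 each). Gclc moved from rank 11 to rank 16, and Prdx2 from rank 13 to rank 9. The 2 members with the largest fold falls, Mgst1 and Slc7a11, were both among the lower levels, at 4.58 ± 0.544 and 5.43 ± 0.410 CPM per kilobase in the scrambled cells (SD, n = 4 each). The length is the union of all annotated exons, so genes with long alternative exons are placed too low. Summed over all 35 members, the level was 5625 ± 17.6 CPM in the knockdown and 5808 ± 61.7 CPM in the scrambled cells (SD, n = 4 each), without overlap between libraries.

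**Figure D4:**
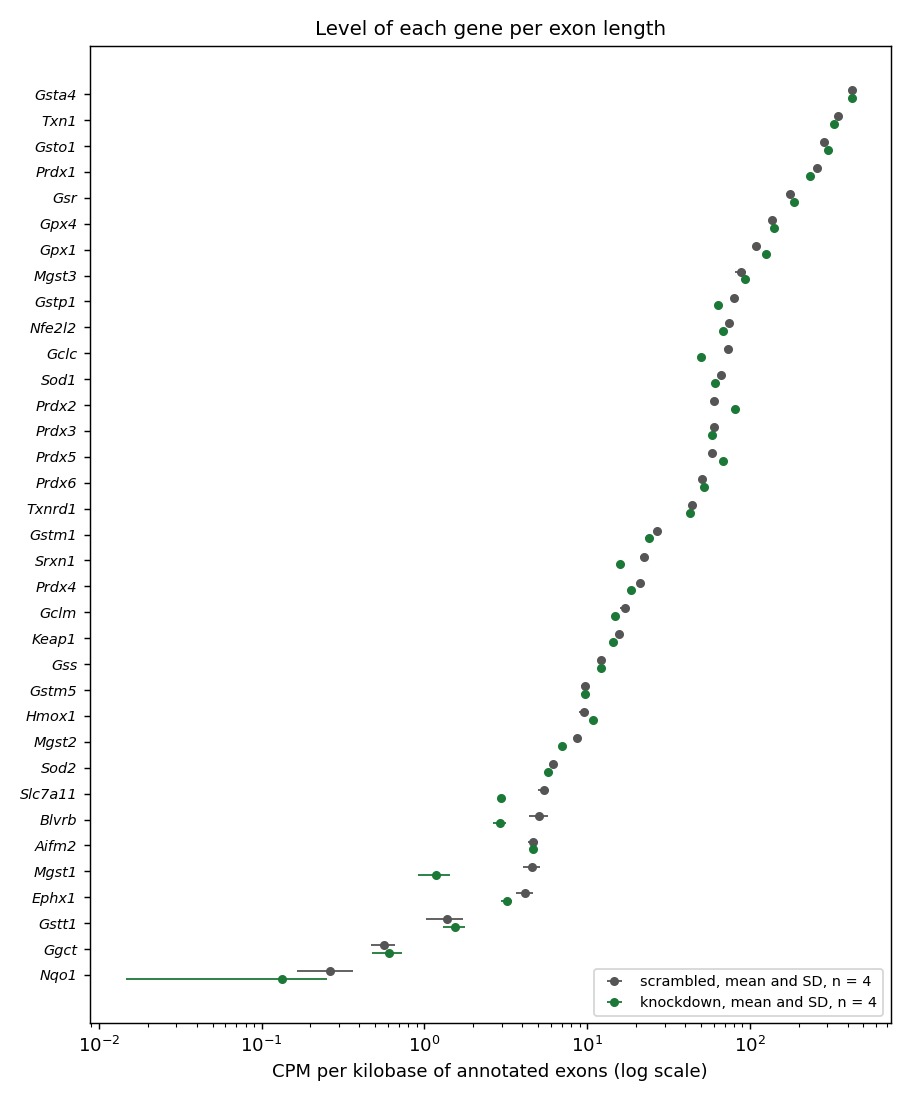
Level of each of the 35 members in CPM per kilobase of exon on a log axis, mean and SD of 4 libraries per group, ordered by the scrambled level. The groups nearly coincide for most members, and the means lie farthest apart for Mgst1, followed by Nqo1, which is lowest in both groups and has overlapping libraries, Slc7a11 and Blvrb.

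The tested members lie on 13 chromosomes, and the median gene of some chromosomes was shifted in these lines. On chromosome 8 the median log2 change of 649 genes was 0.208, and it holds Prdx2 and Hmox1, both called higher, and Gsr. On chromosome 19 the median was 0.105, and it holds Gsto1 and Prdx5, called higher, Gstp1, called lower, and Prdx3. Chromosomes 9 and 6, with Gclc and Mgst1, had medians of -0.085 and -0.11. Relative to its chromosome's median, Prdx2 was still higher by 0.22 and Mgst1 lower, at -1.87, and Slc7a11 and Gclc stood at -0.90 and -0.47. Hmox1 and Gsto1 changed sign on that scale, to -0.030 and -0.022. The part of these chromosome-wide shifts in the members' changes was not tested.

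Among 67 further genes of the same system, listed by function, 56 were tested, of which 21 were lower (37.5%) and 15 higher (26.8%) in the knockdown, beside the 24.1% and 23.8% of all genes. These genes too were listed with earlier results of these data known, so their shares describe the list and are no independent check. The lower calls were most frequent among NRF2-linked enzymes and iron storage, where 9 of 13 were lower and 1 was higher. Fth1, the ferritin heavy chain that stores iron, was at 698 ± 15.1 CPM in the knockdown and 894 ± 10.0 CPM in the scrambled cells (SD, n = 4 each), 1.28-fold lower (edgeR adjusted p = 4.99e-12). Ftl1, the ferritin light chain, was 1.17-fold lower (edgeR adjusted p = 7.7e-10). Ftl1 shares 355 exon bases with Gm10252, and Fth1 has the smallest adjusted p of the further genes. Maff, a small MAF protein and partner of NRF2, was at 18.6 ± 1.21 against 33.4 ± 1.56 CPM (SD, n = 4 each), 1.79-fold lower (edgeR adjusted p = 7.16e-11), while its relatives Mafg and Mafk were not called.

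Of the 6 listed under other peroxidases, dismutase and catalase, only 3 were tested, and Gpx2, Gpx7 and Sod3 were below the filter on low counts. The 3 tested, Gpx3, Gpx8 and Cat, were all called higher, beside 23.8% of all genes. Gpx3, a secreted glutathione peroxidase, was at 4.71 ± 0.311 CPM in the knockdown and 1.37 ± 0.245 CPM in the scrambled cells (SD, n = 4 each), 3.45-fold higher (edgeR adjusted p = 4.97e-09). Gpx8, a peroxidase of the endoplasmic reticulum, was at 2.17 ± 0.5003 against 0.458 ± 0.155 CPM (SD, n = 4 each), 4.67-fold higher (edgeR adjusted p = 5.48e-07). It passed the filter on low counts only through the knockdown, with 5 to 14 counts per scrambled library, so that call was in part set by the filter. The same holds in the other direction for Gsta2 among the 21 lower calls, and for no called member. Txnip, which binds and inhibits thioredoxin, was 1.32-fold higher at 67.6 ± 1.89 against 51.2 ± 1.63 CPM (SD, n = 4 each; edgeR adjusted p = 1.58e-08), and shares 606 exon bases with the antisense gene Gm15441. The remaining classes were mixed, beside 24.1% lower and 23.8% higher of all genes. Lower and higher were 2 and 2 of 9 regulators and 4 and 2 of 9 cystine and glutathione genes. Among transferases the counts were 3 and 2 of 10, and among thioredoxin and glutaredoxin genes 3 and 5 of 12.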

How the data were processed

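Poly(A) RNA of 8 libraries was sequenced as stranded, paired-end reads, per the labels' protocols. The deposited table holds whole-number counts per gene that the authors made. The genome build was mm10, and the tools included STAR, Bowtie, DESeq2 1.36.0 (R 4.2.1) and bcl2fastq 2.20, per the submitters' processing notes. The role of each tool, the annotation used and whether strand entered the counting are not stated in these sources. Nothing was normalized before deposit as far as the values show: column totals differ, from 19165513 to 23542275.

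From these counts, genes were kept by filterByExpr (minimum count 10, minimum total 15), scaled by TMM and tested for knockdown against scrambled in edgeR 4.0.16 (quasi-likelihood test, R 4.3.3), with Benjamini-Hochberg adjustment over 11797 genes and a threshold of 0.05. SE and 95% intervals are from the same fit. Median biological coefficient of variation was 0.0372. Ratios of partner genes within a library used log2 of counts plus 0.5 and an exact permutation test over 70 arrangements. Alternatives used DESeq2 1.42.0 and limma 3.58.1. The fit was tested on simulated data. Of 24421 symbols, 23615 matched a current and 683 an older symbol, and 123 did not match. Gene positions and exon lengths are from GENCODE M21 on GRCm38, promoters and the microRNA from RefSeq.

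The members and gene lists were chosen with earlier results of these data known. Given per library are Nfe2l2, Keap1, Mgst1, Slc7a11, Gclc, Gclm and the 2 called members of each role with the smallest adjusted p; Hmox1 and Nqo1 were added after their values were seen. Of the further genes, the 3 called with the smallest adjusted p in each direction are named, along with Slc3a2 as a ratio partner. Blvra was added after its value was seen. Intervals and floors cover counting error or library spread only. All 8 libraries entered the main comparisons, and 7 those that leave a library out.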

Additional observations from a re-analysis of the deposited data

Results flagged for a closer look

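Among 80 sets of 4 libraries (each member and each ratio in each group), 6 had a library that stood apart from the other 3, where chance gives about 1 in 20. In knockdown replicate 3, Slc7a11 was the lowest at 39.0 CPM, with the others at 41.8 to 42.2 CPM, and the log2 ratio of Slc7a11 to Slc3a2 was the lowest at -2.19, with the others at -2.08. The gap is small beside the distance to the scrambled libraries. Gstp1 was lowest in scrambled replicate 4 at 118 CPM, with the others at 126 to 127 CPM. Gsto1 was highest in scrambled replicate 1 at 591 CPM, with the others at 569 to 572 CPM. Prdx5 was lowest in knockdown replicate 4 at 139 CPM, with the others at 148 to 149 CPM. The log2 ratio of Txnrd1 to Txn1 was highest in scrambled replicate 4 at -0.17, with the others at -0.25 to -0.24. For Slc7a11, Gstp1, Gsto1 and Prdx5 the call held in edgeR with any of the 8 libraries left out.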

How the results depend on the processing

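Against a fold of 1.2 (edgeR's glmTreat), 5 members were lower and 1 higher, and 7 and 4 of the further genes. Upper-quartile factors and library totals each gave 8 members higher, and an adjusted p under 0.01 gave 8 further genes higher. Leaving out 1 library gave 15 to 17 members lower and 4 to 7 higher, and 19 to 22 further genes lower and 10 to 17 higher. It gave log2 ratio differences of -1.07 to -0.98 for Slc7a11 to Slc3a2, -0.38 to -0.34 for Gclc to Gclm, -0.37 to -0.30 for Srxn1 to Prdx1, 0.011 to 0.050 for Txnrd1 to Txn1 and -0.033 to 0.011 for Keap1 to Nfe2l2, where the sign changed. Without scrambled replicate 3, 10 further genes were higher instead of 15.

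Same-numbered libraries did not deviate together: correlations were -0.0350 to 0.0201, and 1 of the 4 numbers gave its own best match. With the replicate number as a block, 16 members were lower and 7 higher, and 21 and 15 of the further genes, with Gsr (edgeR adjusted p = 0.0342) and Mgst3 (0.0409) called in addition. The ratio differences, which a pairing of complete pairs cannot move, were -1.04 (Slc7a11 to Slc3a2), -0.36 (Gclc to Gclm) and -0.34 (Srxn1 to Prdx1) under the block with a sign-flip p of 0.125, the smallest that 4 pairs allow.

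Over the alternatives that refit single members, 498 values kept their direction and side of the threshold, 18 gained a call, 7 lost it and 21 changed sign, all of the latter in uncalled members. Subtracting the chromosome medians involves no new test, since each adjusted p is carried over. It left 3 called members with a positive value, with Gsto1 at -0.022 and Hmox1 at -0.030, and also gave -0.14 for Gsr, 0.085 for Gsta4, -0.027 for Gstm5 and -0.0072 for Prdx6. Upper-quartile factors and library totals gave 0.013 and 0.019 for Gss, 0.019 and 0.025 for Gsta4, and 0.013 and 0.020 for Aifm2. A filter of 1 CPM in at least 4 libraries gave 0.0012 for Gsta4. Leaving out 1 library gave -0.030 to 0.011 for Gss, -0.057 to 0.19 for Ggct, -0.018 to 0.018 for Gsta4, -0.024 to 0.043 for Gstm5 and -0.049 to 0.023 for Aifm2. The cause was not tested. Depth limits Nqo1, Ggct and Gstt1, whose low counts left wide intervals or, for Nqo1, no place in the main test.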

Other observations

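Further genes of the system that the text has not named with values, chosen after their values were seen, are given here. G6pdx, at the entry of the pentose phosphate pathway, was at 171 ± 2.37 CPM in the knockdown against 193 ± 7.55 CPM, and Me1, malic enzyme, at 291 ± 3.35 against 325 ± 3.36 CPM (SD, n = 4 each; edgeR adjusted p = 4.44e-05 and 5.14e-06). Cth, which makes cysteine from cystathionine, was 1.25-fold lower (edgeR adjusted p = 0.000105). Abcc4, an exporter that can carry glutathione conjugates, was 1.23-fold lower (edgeR adjusted p = 4.79e-08). Txnrd3, a thioredoxin-glutathione reductase, was 1.42-fold lower (edgeR adjusted p = 1.16e-06). Cytosolic Glrx was 1.403-fold lower and mitochondrial Glrx2 1.19-fold higher (edgeR adjusted p = 0.000115 and 0.00472). Msrb3, which repairs oxidised methionine, was at 7.63 ± 0.293 CPM against 4.19 ± 1.08 CPM (SD, n = 4 each), 1.83-fold higher (edgeR adjusted p = 1.09e-05). Cat, catalase, was 1.10-fold higher (edgeR adjusted p = 0.00119).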
